A study of Mus musculus with 2 samples.

Results

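Prdm12, Onecut3, Dmrt3, Irx5, Hes7 and Elf4 are the 6 developmental transcription factor genes described here, out of 158 genes in the authors' deposited table. They were found by matching the table's Ensembl identifiers to mouse symbols, and were chosen by their place among genes that the authors listed as higher in the Nap1l1-shRNA1 library. That choice used the measured ratio and p-value of this same comparison, so the values below are a description and carry no test.

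The RNA came from neural stem cells taken from the brain of ICR mouse embryos at day 12, kept in proliferation medium for 1 day and infected with lentivirus. The control library carried the Piscor construct and the other library carried Nap1l1-shRNA1, a short hairpin RNA against Nap1l1, the gene of a histone chaperone. Both cultures were infected, so they differ by the construct and share the virus. A single hairpin construct was used in 1 library per group, and the labels used here do not give the infected share of cells or the number of embryos pooled. Nap1l1 itself is not among the 158 genes, so its lowering by the hairpin could not be checked here. None of the 8 neural stem cell markers looked for (Sox2, Nes, Pax6 and others), and none of the markers of neurons, astrocytes, microglia and mesenchymal cells, is among the 158 genes. The labelled cell type could therefore not be checked here.

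Transcription factors bind DNA and raise or lower the transcription of other genes, and many that pattern the embryo are switched on in few cells and at low level. Prdm12, a PR domain zinc finger regulator, is known from pain-sensing neurons and from the spinal cord. Dmrt3, of the DM domain family, is known from spinal interneurons that coordinate walking. Onecut3 has a CUT domain and a homeodomain and belongs to a family active in motor neurons, interneurons and the pancreas. Irx5, an Iroquois homeodomain factor, acts in the retina and the heart. Hes7 is a repressor of the Hes family, known targets of Notch signalling, and oscillates in the mesoderm that forms the vertebrae. Elf4 is an ETS domain activator best known from T cells and natural killer cells.

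The genes lie on 6 different chromosomes of mouse assembly GRCm38 and are all protein-coding. Prdm12 (ENSMUSG00000079466) spans chr2:31640037-31655795 on the plus strand and Onecut3 (ENSMUSG00000045518) chr10:80494835-80517276 on the plus strand. Dmrt3 (ENSMUSG00000042372) spans chr19:25610537-25623920 and Irx5 (ENSMUSG00000031737) chr8:92357796-92361456, both on the plus strand. Hes7 (ENSMUSG00000023781) spans chr11:69120404-69124055 on the plus strand and Elf4 (ENSMUSG00000031103) chrX:48411046-48463132 on the minus strand. No other listed gene is a near neighbour of any of them. The closest pair is Onecut3 and Fgf22, which lie 737.9 kb apart.

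The promoters are shown because the 6 genes were listed together for the same direction, and a promoter is the stretch where transcription of its gene begins. RefSeq promoters of build GRCm38.p6 were matched for 4 of the 6 genes, while Onecut3 and Irx5 had no entry. Each run below is the 250 bases upstream of the RefSeq start, 5′ to 3′ on the gene's strand, and Elf4 has 2 starts. Capitals mark matches, on either strand, to 8 short motifs: the E-box CANNTG, the N-box CACNAG, the ETS core CCGGAA, the Onecut-type core ATCGAT, the TATA box TATAAA, the CCAAT box by its own letters, the GC box GGGCGG and the Rbpj core TGGGAA. No match overlapped a match to another motif.
Prdm12, chr2:31639787-31640036, plus strand: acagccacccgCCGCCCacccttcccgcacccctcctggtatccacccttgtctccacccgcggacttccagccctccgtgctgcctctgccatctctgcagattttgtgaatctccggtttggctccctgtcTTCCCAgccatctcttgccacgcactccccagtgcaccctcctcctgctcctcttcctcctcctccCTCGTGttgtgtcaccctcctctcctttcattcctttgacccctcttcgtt
Hes7, chr11:69120203-69120452, plus strand: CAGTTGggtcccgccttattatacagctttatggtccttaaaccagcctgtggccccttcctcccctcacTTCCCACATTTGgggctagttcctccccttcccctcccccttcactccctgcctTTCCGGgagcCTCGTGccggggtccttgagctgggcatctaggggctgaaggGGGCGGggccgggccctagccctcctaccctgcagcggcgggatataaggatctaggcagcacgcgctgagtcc
Dmrt3, chr19:25610287-25610536, plus strand: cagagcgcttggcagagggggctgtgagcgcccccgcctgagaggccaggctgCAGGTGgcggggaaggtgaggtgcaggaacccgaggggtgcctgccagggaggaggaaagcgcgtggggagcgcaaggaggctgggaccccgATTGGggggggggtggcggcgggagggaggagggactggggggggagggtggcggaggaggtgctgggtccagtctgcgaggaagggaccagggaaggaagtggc
Elf4 first start, chrX:48463133-48463382, minus strand: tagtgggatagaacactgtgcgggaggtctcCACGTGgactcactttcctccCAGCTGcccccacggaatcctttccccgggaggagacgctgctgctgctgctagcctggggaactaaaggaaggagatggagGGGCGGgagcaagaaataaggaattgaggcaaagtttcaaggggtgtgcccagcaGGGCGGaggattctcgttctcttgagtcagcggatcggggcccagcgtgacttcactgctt
Elf4 second start, chrX:48454320-48454569, minus strand: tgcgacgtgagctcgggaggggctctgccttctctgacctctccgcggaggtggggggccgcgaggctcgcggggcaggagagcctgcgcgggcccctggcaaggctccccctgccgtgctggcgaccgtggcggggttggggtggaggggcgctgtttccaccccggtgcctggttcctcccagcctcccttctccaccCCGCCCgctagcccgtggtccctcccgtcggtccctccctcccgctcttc

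These windows were rich in G and C, from 58.4% upstream of the first Elf4 start to 74.4% upstream of the second, beside a median of 52.4% over all 32851 promoter windows. The GC box was present in 4 of the 5 windows, and in 32.7% of all windows. The E-box was present in 3 of the 5, against 66.2% of all windows, and the N-box, a sequence that Hes proteins can bind, in the Prdm12 and Hes7 windows, against 36.7%. The Rbpj core was present in the same pair of windows, against 21.6%. The ETS core was found in the Hes7 window (12.0% of all windows) and the CCAAT box in the Dmrt3 window (33.8%). The TATA box and the Onecut-type core, which 12.4% and 0.728% of all windows hold, were found in none of the 5. With 5 windows from 4 genes these are matches of letters and not measured binding sites. The RefSeq start of Hes7 lies 49 bases inside the gene as the table places it, so the end of its window is already annotated as transcribed there. The second Elf4 start lies 8813 bases inside Elf4 as the table places it, so its whole window, the one with 74.4% G and C, is within the gene. In the GENCODE M21 annotation Dmrt3 begins at 25610301, so most of its window is within the gene there. The whole Hes7 window lies in an exon of 9130213A22Rik, a gene on the opposite strand.

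All 6 genes had more reads in the Nap1l1-shRNA1 library, and all were weakly expressed. Both hold for every listed gene and are not particular to the 6. The authors selected the listed genes by fold change, and all of them are higher. The listed gene with the most reads, Gm2824, had 53 in the Nap1l1-shRNA1 library and 22 in the control, or 6.04 and 2.64 CPM. Library totals were 8777836 reads for Nap1l1-shRNA1 and 8325166 for the control, so that 1 read equals 0.114 and 0.12 CPM (counts scaled to a total of 1000000 reads). Intervals on levels are exact Poisson 95% intervals, and intervals on ratios are exact 95% conditional binomial ones. Both hold counting error alone, since each group has 1 library. Reads copied from 1 molecule by PCR were not told apart, so even these intervals may be too narrow. In a whole culture, more cells of a type and more RNA per cell cannot be told apart.

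Among the factors of neuron specification, Prdm12 was the most abundant. The Nap1l1-shRNA1 library gave 50 Prdm12 reads and the control gave 17, which is 5.70 CPM (4.23 to 7.51) and 2.04 CPM (1.19 to 3.27). It is the one gene of the 6 whose 2 level intervals do not overlap, and its CPM ratio was 2.79 (1.58 to 5.16). For Onecut3 the counts were 16 and 5, or 1.82 CPM (1.04 to 2.96) and 0.601 CPM (0.195 to 1.40). The Onecut3 levels overlap in their intervals, and the ratio of 3.03 had an interval from 1.06 to 10.6. For Dmrt3 the counts were 14 and 4, or 1.59 CPM (0.872 to 2.68) and 0.480 CPM (0.131 to 1.23). Its ratio of 3.32 was the highest of the 5 genes that have one, with the widest interval (1.04 to 13.8).

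Irx5 was seen in the Nap1l1-shRNA1 library alone, with 5 reads, or 0.570 CPM (0.185 to 1.33). For the control count of 0 a floor of 3 reads, or 0.36 CPM, was used, while its Poisson interval reaches 0.443 CPM. Set against 3 control reads, the 5 reads of Irx5 taken as exact would be 1.58-fold higher, which is not a lower limit. The exact interval of the ratio starts lower, at 0.869, and has no upper limit, so equal levels lie within counting error. In the authors' deposited table the fold change of Irx5 is 166.5, while its log2 fold change of 3.25 equals a ratio of 9.48. The first takes the missing control level as 0.00342 CPM, which is less than 1 read is worth.

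The remaining 2 factors, the Notch-pathway repressor Hes7 and the ETS factor Elf4, had the lowest ratios. Hes7 had 18 and 7 reads in the Nap1l1-shRNA1 and control libraries, or 2.05 CPM (1.22 to 3.24) and 0.841 CPM (0.338 to 1.73). Elf4 had 23 and 10 reads, or 2.62 CPM (1.66 to 3.93) and 1.20 CPM (0.576 to 2.21). Both pairs of levels overlap in their intervals. The Hes7 ratio was 2.44 (0.972 to 6.91) and the Elf4 ratio 2.18 (0.999 to 5.13), and both intervals include 1.

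**Figure D1:**
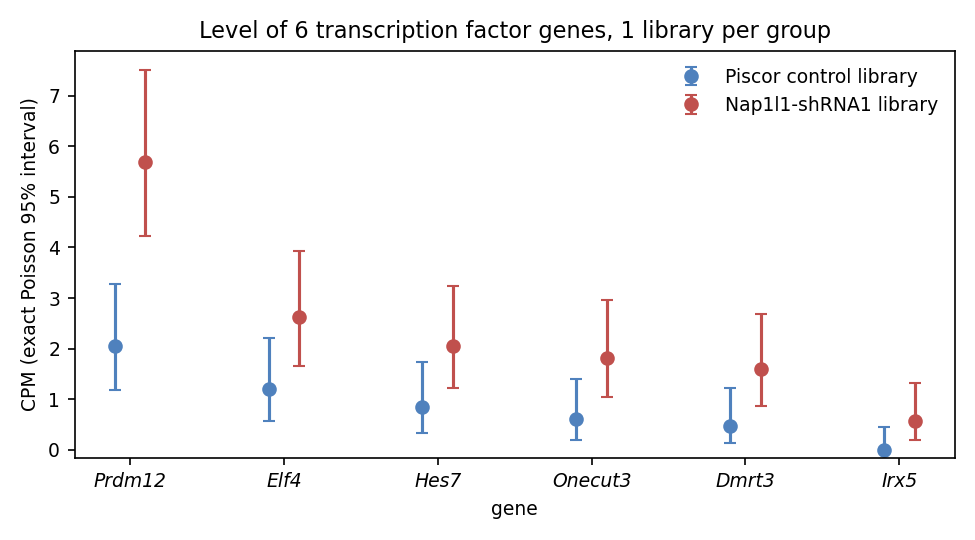
Level of each gene in CPM (vertical axis) in the Piscor control library (blue) and the Nap1l1-shRNA1 library (red), with bars for exact Poisson 95% intervals. Prdm12 is highest in both libraries at 5.70 and 2.04 CPM, and its bars do not overlap.

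Per length of exon the order of the genes changed, since Elf4 (6148 bases of merged exons) and Onecut3 (4776) are long and Hes7 (1809) is short. In RPKM, the CPM divided by the kilobases of exon, Prdm12 led the Nap1l1-shRNA1 library at 2.31 (1.71 to 3.04). Hes7 followed at 1.13, then Dmrt3 at 0.652, Elf4 at 0.426, Onecut3 at 0.382 and Irx5 at 0.182. Prdm12 exceeded Hes7 by 2.03 times (1.17 to 3.70), and for the other 4 neighbouring pairs in this order the interval of the level ratio included 1. The control library had the same order, from Prdm12 at 0.826 and Hes7 at 0.465 through Dmrt3 (0.197), Elf4 (0.195) and Onecut3 (0.126) to Irx5 at 0. There the interval of every neighbouring pair included 1. The length of the longest transcript in place of the merged exons left the order the same in both libraries and moved Irx5 most, to 0.223 RPKM.

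**Figure D2:**
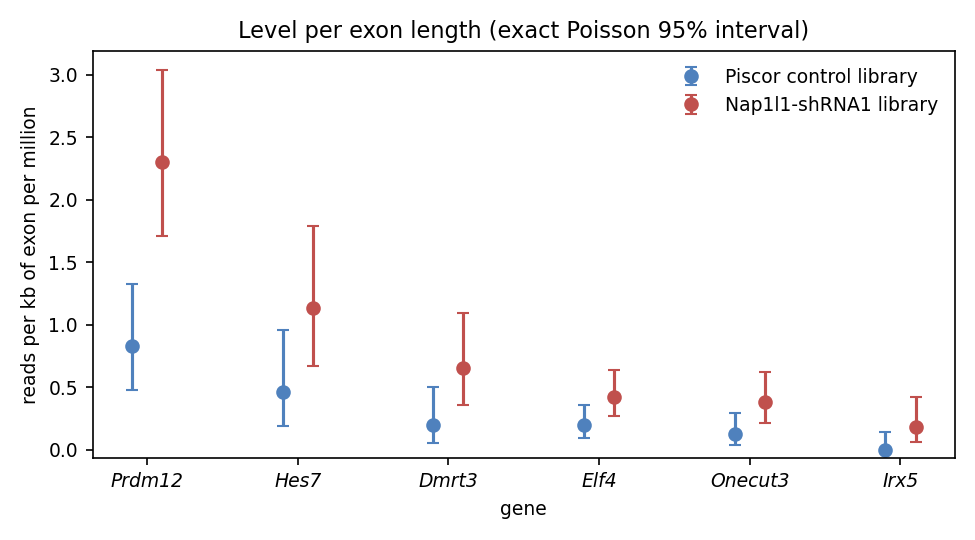
RPKM over merged exons (vertical axis) for the 6 genes in the control (blue) and Nap1l1-shRNA1 (red) libraries, with exact Poisson 95% intervals. Hes7 stands second at 1.13 and 0.465, while Elf4, second by CPM, stands behind Dmrt3 at 0.426 and 0.195.

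Summed over the 6 genes there were 126 reads in the Nap1l1-shRNA1 library and 43 in the control, or 14.4 and 5.17 CPM. The pooled ratio was 2.78 (1.95 to 4.03). Prdm12 contributed 39.7% of the pooled Nap1l1-shRNA1 reads and 39.5% of the control reads. Without Prdm12 the other 5 genes had 76 and 26 reads and a ratio of 2.77 (1.76 to 4.51). Leaving out each gene in turn gave pooled ratios from 2.67, without Irx5, to 2.96, without Elf4. The other 152 listed genes, pooled in the same way, had a ratio of 3.30 (3.01 to 3.61). Since every gene in either pool was listed for being higher, neither ratio is an independent estimate, and their difference was not tested. Scaling on the listed genes themselves, all of them higher, put the pooled ratio at 0.799 (median-ratio) or 0.802 (TMM). Such scaling sets the middle of the table near 1, so these values place the pool below that middle and show no direction.

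**Figure D3:**
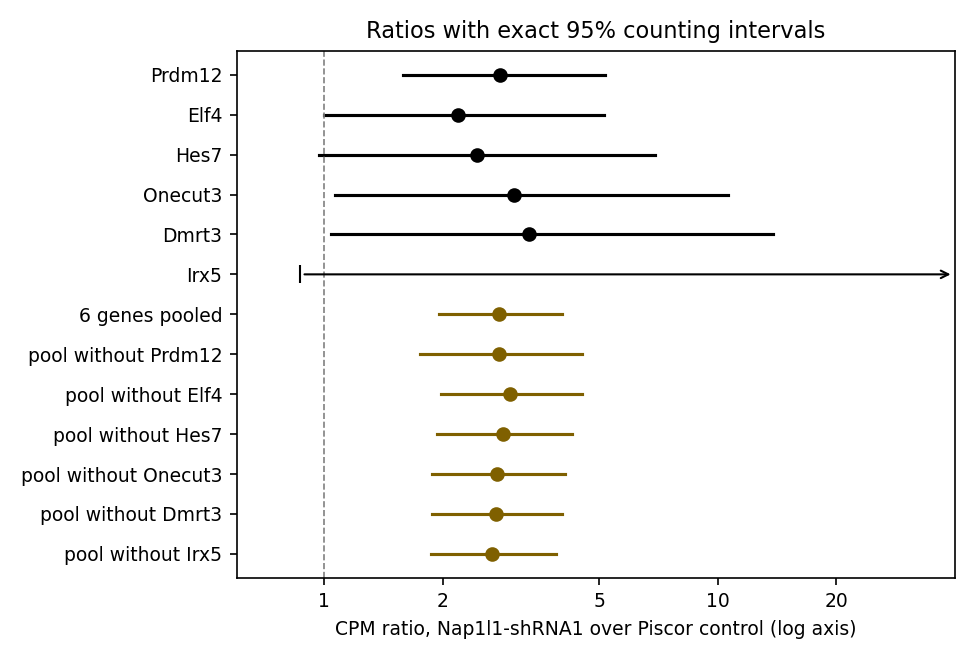
CPM ratio of Nap1l1-shRNA1 over control (log axis) for each gene (black), for the 6 pooled and for the pool without each gene in turn (brown), with exact 95% intervals; the dashed line marks 1 and the Irx5 arrow has no upper limit. Prdm12, Onecut3 and Dmrt3 have intervals above 1, and the pooled ratios lie between 2.67 and 2.96.

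The depth did not separate the 6 genes by the size of their ratios. Over the 10 pairs of genes that both have a control read, one ratio divided by the other ran from 0.657 (Elf4 over Dmrt3) to 1.28 (Prdm12 over Elf4). In all 15 pairs the exact conditional 95% interval included 1. These intervals were wide, from 0.127 to 2.89 for Elf4 over Dmrt3 and from 0.448 to 3.51 for Prdm12 over Elf4, so that differences of several-fold between genes would not have been detectable.

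The same genes were set beside the whole table. The interval of the ratio lay above 1 for 3 of the 6 genes (Prdm12, Onecut3 and Dmrt3), beside 60.1% of the 158. With 1 more control read the interval would start at 0.940 for Onecut3 and 0.904 for Dmrt3, and at 1.51 for Prdm12. The same starts would hold for listed genes with the counts of Onecut3 or Dmrt3, such as Fat2 and Dock2. No share over the 158 genes was counted for this setting. On the log2(CPM + 1) scale, where low genes show less than their full change, 1 of the 6, Prdm12, was higher by at least 1, beside 6.33% of the table. Its difference was 1.14, and those of the other 5 ran from 0.65 for Irx5 to 0.82 for Onecut3. The median of the 6 was 0.77, as was that of the table. On the ratio scale the medians differed, at 2.79 for the 5 members with a ratio and 3.48 for the 119 listed genes with one. The 6 members also had more reads, with medians of 17 and 6 in the Nap1l1-shRNA1 and control libraries, beside 11 and 2 for the table. Whether the lower ratios go with the higher counts was not tested. The authors' deposited table marks 1 of the 6 as significant, again Prdm12, beside 12.0% of the 158. These shares come from the comparison that chose the genes, and nothing is read from them.

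**Figure D4:**
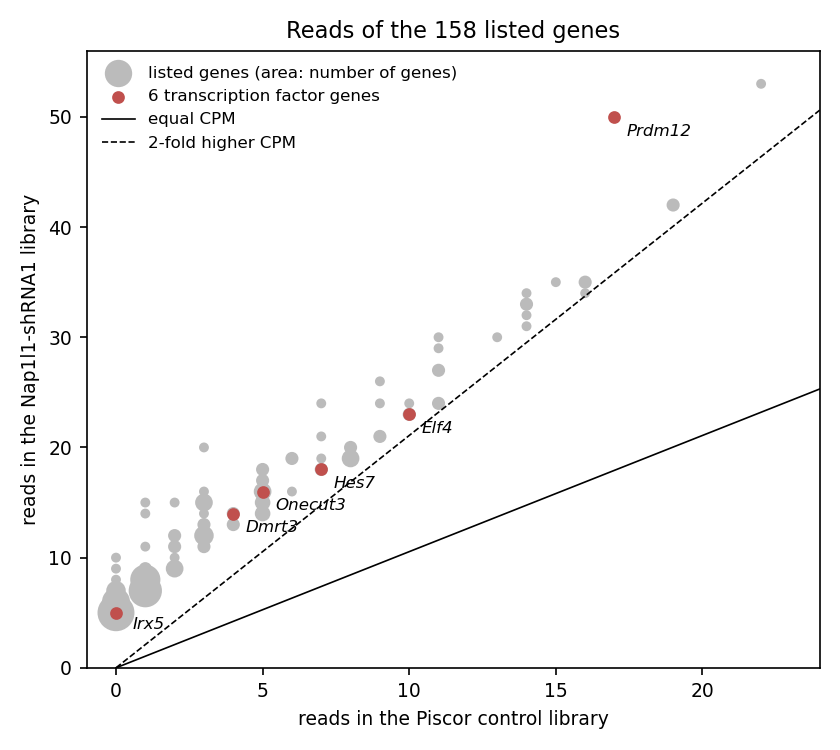
Reads in the control library (horizontal) and in the Nap1l1-shRNA1 library (vertical) for the 158 listed genes (grey, area proportional to the number of genes at a point) and the 6 transcription factor genes (red), with lines for equal CPM and for 2-fold higher CPM. All points lie above the 2-fold line, as the listing requires; Prdm12, at 17 and 50 reads, stands near the top, and Irx5, at 0 and 5, in the corner with the fewest reads.

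In the authors' deposited table Prdm12 has the smallest p of all 158 genes (8.95e-05, adjusted p = 0.00165). Its ratio of 2.79 stands only at rank 80 of the 119 listed genes that have one. By reads it stands at rank 2 in the Nap1l1-shRNA1 library and rank 4 in the control. The other 5 members have adjusted p-values from 0.119 for Onecut3 to 0.216 for Irx5. The unadjusted p of Irx5 there is 0.0454, and the largest listed is 0.0457. Onecut3 and Dmrt3 stand at ranks 69 and 74 by p, Elf4 and Hes7 at 115 and 125. These p-values compare 2 libraries and not replicated conditions, and no source used here names the test behind them.

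A part of the Prdm12 and Hes7 reads could belong to genes on the opposite strand, because the sources used here do not say whether reads were counted by strand. The antisense gene Gm13425 overlaps 200 bases of the first Prdm12 exon, 8.09% of its exon length. The protein-coding gene 9130213A22Rik overlaps 234 bases of Hes7 exons, 12.9% of their length. Neither of these genes is in the table. For Onecut3, Dmrt3, Irx5 and Elf4 no exon of another gene overlaps their exons. Pooled over these 4, the ratio was 2.90 (1.70 to 5.15).

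**Figure D5:**
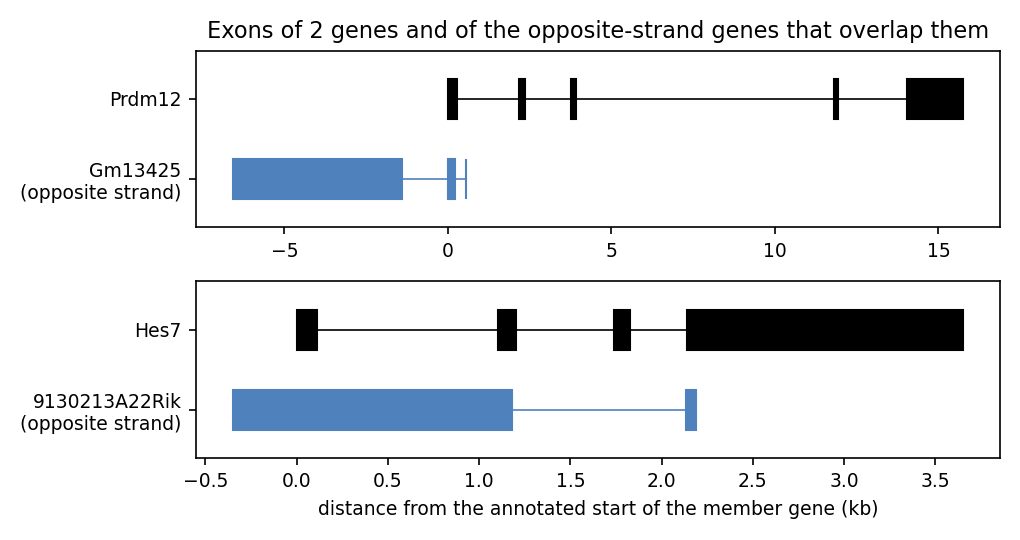
Exons (boxes) of Prdm12 and Hes7 in black and of the gene on the opposite strand in blue, by distance in kilobases from the annotated start of Prdm12 or Hes7. The overlap is at the first exon of Prdm12 (200 bases) and at 3 of the 4 exons of Hes7 (234 bases in all).

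Each gene was the 1 listed member of its family. The table held 1 of 15 PRDM genes, 1 of 3 Onecut genes, 1 of 7 Dmrt genes, 1 of 6 Iroquois genes, 1 of 10 Hes and Hey genes and 1 of 27 ETS genes. It held none of 15 other Notch and segmentation clock genes and none of 19 neurogenic bHLH factors. None of 72 regional homeobox factors and none of 55 other factors of neural development was in it either. These lists leave out the 6 genes themselves, such as Hes7, Irx5 and Onecut3, which are counted under their families. Levels of genes outside the table were not analysed here, so an absent gene was not read as unchanged.

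By the annotation the authors deposited beside the counts, the 6 proteins carry 6 different domains: SET for Prdm12, CUT for Onecut3, DM for Dmrt3, a KN homeobox for Irx5, a helix-loop-helix for Hes7 and Ets for Elf4. All 6 have a DNA binding term, which 11 of the 158 genes (6.96%) have, and all 6 a transcription term, which 15 of the 158 (9.49%) have. Since the genes were chosen as transcription factors, these terms follow from the choice.

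The listed genes most like each member in log2(CPM + 1) over the 2 libraries mostly had identical counts. Tep1, of the telomerase complex, had the counts of Hes7, Dock2, a regulator of Rac in leukocytes, those of Dmrt3, and 3010003L21Rik those of Elf4. Fat2, an atypical cadherin, Fgf15, a growth factor of the embryonic brain, and Gm8902 had the counts of Onecut3. Irx5 shared its counts with 19 other genes that have a symbol, among them 1700019A02Rik, 4930519L02Rik and 5830462I19Rik. Prdm12 had no equal: Ubxn11 and 5430403G16Rik, with 42 and 19 reads each, were nearest, at a distance of 0.24. With 2 libraries and counts this low, equal counts are common and say nothing of shared control.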

How the data were processed

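Per the labels' protocols, poly(A) RNA of each culture was reverse transcribed with random primers and sequenced. The tools named are HTSeq 0.6.0, Bowtie 1.0.1 and TopHat2 2.0.12, per the submitters' processing notes. Their roles, the genome build and the strand setting are not given in the sources used for these genes. For each Ensembl gene the authors deposited a raw read count and a CPM value in either library, per the file headers. They also deposited the fold change (a ratio), the log2 fold change and p-values with adjusted p-values, per the file headers. The genes listed are those the authors selected (p below 0.05, log2 fold change beyond 1 in size), and all are higher. The control column spells the construct name with 2 letters exchanged and was matched to the sample title.

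Library totals were computed from count over CPM. Ratios, intervals and log2(CPM + 1) differences (pseudocount 1 CPM, no filter) were computed with Python 3.11.15 and scipy 1.17.1, and the interval was tested on simulated data. edgeR 4.0.16 was used for TMM factors only. With 1 library per group no test was run. Symbols matched 157 of the 158 genes by Ensembl identifier. Exons are those of GENCODE M21 (GRCm38), whose positions are identical to the table's for 4 of the 6 genes and differ for Dmrt3 and Irx5. The genes named were the 6 members, listed genes of the gene lists (1 list is not reported here), the genes closest to each member in level and overlapping listed genes. The members and lists were chosen with earlier results of these data known. Alternatives were other scalings, intervals, pseudocounts and count minimums, and leaving out each gene.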

Additional observations from a re-analysis of the deposited data

How the results depend on the processing

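With 1 library per group no library could be left out, and counting error is the 1 error measured. No paired analysis was possible because each group has 1 library. The pooled ratio of 2.78 stayed above 1 with raw counts (2.93), with at least 10 reads (2.67), with each gene left out, with the median of the 6 ratios after adding 0.5 reads (2.79) and without the genes overlapped on the opposite strand (added after the data were seen). Each of the 6 genes was listed for a log2 fold change beyond 1, so none of these settings could bring the pooled ratio below 1. The pooled ratio turned below 1 under median-ratio scaling (0.799) and TMM scaling (0.802). Under these 2 scalings the ratios became 0.802 and 0.805 for Prdm12, 0.627 and 0.629 for Elf4, 0.701 and 0.703 for Hes7, 0.873 and 0.875 for Onecut3, and 0.955 and 0.957 for Dmrt3. Both scalings centre on a table in which every gene is higher, so they put the genes with smaller ratios below 1 by construction and show no direction. Of the 6 genes, 1 was higher by 2-fold with a pseudocount of 1 CPM, 6 with 0.1 CPM, 4 with 0.5 CPM, 0 with 5 CPM, and 6 when the log2 fold change is the one the authors deposited. Over the table the same pseudocounts gave 10, 155, 125 and 0 genes. By the deposited log2 fold change all 158 genes pass, since the listing required it and the smallest value is 1.01. The 3 intervals above 1 became 6 with a mid-p interval, 5 with raw counts and 1, that of Prdm12, with a 99% interval. Over the table these intervals lay above 1 for 98.1%, 68.4% and 10.8% of the 158 genes. In 2 settings added after the data were seen, the Prdm12 interval stayed above 1 and those of Onecut3 and Dmrt3 did not. The settings were 1 read added to each control count, and 1 read taken from each Nap1l1-shRNA1 count. No share over all 158 genes is given for them, so nothing particular to these members is read from them. The calls for Onecut3 and Dmrt3 changed with 1 read, and so would those of listed genes with the same counts, such as Fat2 and Dock2.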

Other observations

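Other listed genes also carry both a transcription and a DNA binding term in the annotation the authors deposited, and were picked from it after the values were seen. Ahrr, the repressor of the aryl hydrocarbon receptor, had 27 reads in the Nap1l1-shRNA1 library and 11 in the control, or 3.08 and 1.32 CPM. Its ratio was 2.33 with a 95% counting interval from 1.12 to 5.20, between those of Elf4 and Hes7. Lyl1, a helix-loop-helix factor of blood and endothelial cells, had the same counts as Irx5, 5 reads and 0, and a ratio interval that starts at 0.869. Gm6712 had 26 and 9 reads, a ratio of 2.74 (1.24 to 6.65), and 5430403G16Rik had 42 and 19, a ratio of 2.10 (1.19 to 3.82).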
